A study of Mus musculus with 4 samples.

Results

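10 genes of the early transcriptional response to receptor signals were followed in mouse double-negative regulatory T cells, across all 4 libraries of an RNA sequencing study. They are the transcription factor genes Egr1, Egr2 and Egr3, the orphan nuclear receptor genes Nr4a1, Nr4a2 and Nr4a3, the early response genes Ier2 and Atf3, and the phosphatase genes Dusp1 and Dusp2. The genes were chosen by name as members of this response, with earlier results of these data known. All 10 were found among the 35275 genes of the deposited table, and all 10 were among the 11625 genes tested, those whose mean reached 1 RPKM. Double-negative regulatory T cells carry an αβ T cell receptor without CD4 or CD8, and are able to suppress other lymphocytes. According to the labels they were converted from naive CD4 T cells, and cells with CD3 and TCRαβ on their surface but no NK marker, CD4 or CD8 were sorted before Trizol extraction and TruSeq library preparation. 2 libraries came from OX40-knockout mice and 2 from wild-type mice, all on the C57BL/6 strain. OX40, encoded by Tnfrsf4, is a TNF receptor family member that activated T cells display and that gives them a costimulatory signal. The labels give no allele for the knockout, no age, and no time or stimulus for the conversion. Whether libraries of 1 group are from different mice or cultures is not stated, so a p-value here reflects library-to-library spread alone, and that spread may be technical.

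Immediate early genes are transcribed within minutes of a signal because the factors that switch them on are already present in the resting cell. In T cells the antigen receptor drives them through the ERK kinases, calcium and protein kinase C, and costimulatory receptors, growth factors and physical stress can drive many of the same genes. EGR2 and EGR3 are known to restrain T cell activation, and NR4A factors are used as reporters of recent antigen receptor signals. The products include their own brakes, since the DUSP phosphatases switch off the MAP kinases. Most of these messages are short-lived, so their levels can change within a short time.

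Some facts about the libraries bear on every value below. The library totals behind the RPKM values (reads per kilobase of transcript, scaled to library size) were 22220888 and 22571186 reads in OX40-knockout 1 and 2 and 23215528 and 24395743 reads in wild-type 1 and 2. The typical gap between libraries of a group was wider in the knockout pair, with a median absolute difference of 0.25 on the log2(RPKM + 1) scale over all genes tested, against 0.10 in the wild-type pair. Tnfrsf4 itself was still read, at 12.1 and 9.38 RPKM in the knockout libraries against 18.2 and 12.3 RPKM in the wild-type libraries (limma log2 change -0.46, SE 0.23, adjusted p = 0.975). Which part of Tnfrsf4 was deleted is not stated, so these reads check the labels little. All 9 markers of αβ T cells were above 1 RPKM, with a summed level of 2376 and 2282 RPKM in the knockout and of 2575 and 2260 RPKM in the wild-type libraries. The 3 markers of CD4 or CD8 T cells of the usual kind summed to 31.1 and 13.1 RPKM in OX40-knockout 1 and 2, against 14.7 and 14.9 RPKM in the wild-type libraries. The 6 NK cell markers summed to 131.5 and 341 RPKM in OX40-knockout 1 and 2, and to 234 and 366 RPKM in wild-type 1 and 2. Of 7 markers of γδ T cells 4 were in the table, with sums of 422 and 418 RPKM in the knockout and 408 and 404 RPKM in the wild-type libraries. Of 7 B and plasma cell markers 2 had a mean of at least 1 RPKM, and Ms4a1 and Pax5 were at 0 throughout. The list summed to 26.8 and 13 RPKM in the knockout and to 16 and 14.1 RPKM in the wild-type libraries. Of 11 dendritic and myeloid markers 3 reached that mean, with sums of 22.4 and 21.9 RPKM in the knockout and 18.4 and 28.7 RPKM in the wild-type libraries. The 6 erythroid and platelet markers summed to 8.33 and 10.9 RPKM in the knockout and to 4.85 and 14.3 RPKM in the wild-type libraries. The 8 stromal and epithelial markers summed to 59.9 and 131.6 RPKM in the knockout and to 48.6 and 95.7 RPKM in the wild-type libraries, most of it Pecam1, with Col3a1 and Cdh5 at 0. By these sums OX40-knockout 1 was highest in CD4, CD8 and B cell markers, the last mostly Ighm (21.9 RPKM), and lowest in NK cell markers. The NK cell sums also followed the replicate number, with both libraries numbered 1 below both numbered 2. Each NK cell marker except Itga2 had this order. Ncr1 was at 0.18 and 0.41 RPKM in OX40-knockout 1 and wild-type 1, against 7.49 and 7.93 RPKM in OX40-knockout 2 and wild-type 2. Whether these transcripts come from the sorted T cells or from other cells, and their part in the results below, was not tested. In RNA from whole populations, fewer cells of a type and less RNA per cell cannot be told apart.

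Each of the 10 genes was expressed in every library, from 2.19 RPKM for Nr4a3 in OX40-knockout 1 to 229.8 RPKM for Egr1 in the same library. Egr1 had the highest mean over the 4 libraries, at 158 RPKM. Ier2 followed at 95.1 RPKM and Dusp2 at 84.9 RPKM, and the ranges of these 3 genes overlapped. Dusp1 at 31 RPKM and Atf3 at 20.5 RPKM came between, and the highest Dusp1 value (55.1 RPKM) lay below the lowest Dusp2 value (74.2 RPKM). Below them there was no such gap. The lowest Atf3 value (7.44 RPKM, wild-type 2) lay under the highest values of Egr2 (15.7 RPKM) and Nr4a2 (12.7 RPKM). Egr2 at 11.6, Nr4a2 at 9.67, Nr4a3 at 7.28, Egr3 at 4.4 and Nr4a1 at 4.25 RPKM came last, and each of these overlapped its neighbour in the order. Levels per kilobase depend on the length that was used. For Egr2 the values fit a length of 1565 bases, the mean over its 7 annotated transcripts, where the longest coding transcript has 2965 bases, so its RPKM is high relative to a value over that longest transcript.

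**Figure D1:**
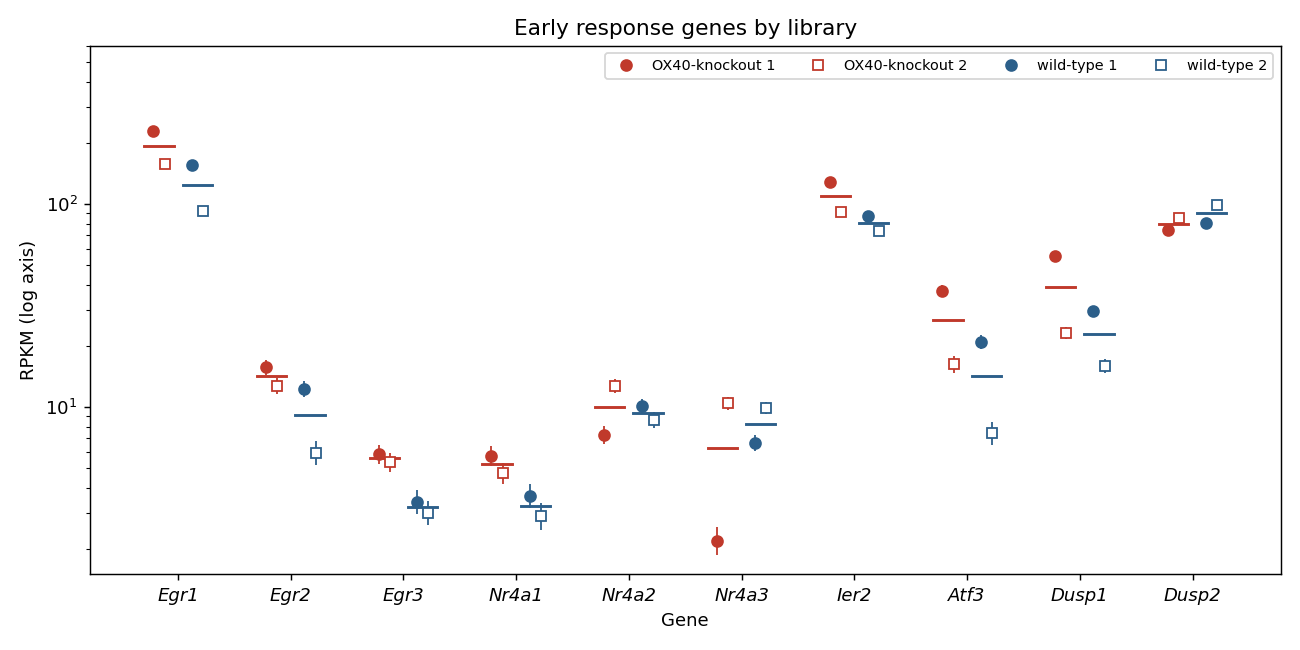
RPKM of the 10 genes (log axis), a point per library, with OX40-knockout libraries in red on the left and wild-type libraries in blue on the right of each gene, filled circles for replicate 1 and open squares for replicate 2. Vertical lines are exact 95% Poisson intervals of the reads and horizontal bars are group means (n = 2 each). Egr3 is the gene whose knockout libraries (5.85 and 5.35 RPKM) stand clear of its wild-type libraries (3.41 and 3.01 RPKM) by more than these intervals.

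The EGR factors are zinc finger proteins that bind GC-rich sites, and for all 3 genes the lower knockout library still exceeded the higher wild-type library. Egr3 stood at 5.85 and 5.35 RPKM in OX40-knockout 1 and 2, against 3.41 and 3.01 RPKM in wild-type 1 and 2. The knockout mean was 5.6 ± 0.352 RPKM and the wild-type mean 3.21 ± 0.28 RPKM (SD, n = 2 each), a ratio of 1.75. The gap between the groups was far wider than the gap within either group, and the 95% Poisson intervals of the reads, which cover counting error only, did not touch. These intervals ran from 4.8 to 6.48 RPKM over the knockout libraries and from 2.62 to 3.88 RPKM over the wild-type libraries. They rest on 342 to 368 reads against 208 to 224 reads, which imply a length of 2832 bases, where the annotated mean is 2454. All these read counts are even, so a shorter length with fewer reads would also give whole numbers, and wider intervals. Egr3 had a log2 change of 0.65 (SE 0.16), with an unadjusted p of 0.0096 in limma, but 37 genes had a lower one, and the limma p adjusted over all genes was 0.975.

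Egr1, the classical serum and antigen receptor response factor, stood at 229.8 and 157 RPKM in the knockout libraries, against 154.8 and 92 RPKM in the wild-type libraries. OX40-knockout 2 and wild-type 1 were almost level, and their read intervals overlapped (154.3 to 159.7 RPKM and 152.2 to 157.4 RPKM). The change of Egr1 was 0.67 on the log2 scale (SE 0.31, limma adjusted p = 0.975). Egr2, which with Egr3 limits T cell activation, had 15.7 and 12.7 RPKM in the knockout libraries, against 12.2 and 5.95 RPKM in the wild-type libraries. Here wild-type 2 was low and the other 3 libraries lay close together, and the log2 change of 0.66 (SE 0.34, limma adjusted p = 0.975) was 0.19 without wild-type 2. Egr1 had a change of 0.29 without wild-type 2. Without OX40-knockout 1 the changes of Egr1, Egr2 and Egr3 were 0.39, 0.51 and 0.60.

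The NR4A genes encode nuclear receptors that act without a known natural ligand, and the 3 did not behave alike. Nr4a1, which encodes NUR77, stood at 5.75 and 4.71 RPKM in the knockout libraries, against 3.64 and 2.9 RPKM in the wild-type libraries. Both knockout values were above both wild-type values, with group means of 5.23 ± 0.734 RPKM in the knockout and 3.27 ± 0.523 RPKM in the wild type (SD, n = 2 each). The read intervals of OX40-knockout 2 (from 4.16 RPKM) and wild-type 1 (up to 4.17 RPKM) just met. The log2 change of Nr4a1 was 0.55 (SE 0.18), with an unadjusted p of 0.033 and an adjusted p of 0.975 in limma. Nr4a2, which encodes NURR1, was at 7.26 and 12.7 RPKM in the knockout libraries, against 10.1 and 8.59 RPKM in the wild-type libraries. The knockout libraries enclosed the wild-type ones, and the log2 change was 0.05 (SE 0.28, limma adjusted p = 0.988), with -0.32 without OX40-knockout 2 and 0.41 without OX40-knockout 1. Nr4a3, which encodes NOR1, was at 2.19 RPKM in OX40-knockout 1 and 10.4 RPKM in OX40-knockout 2, against 6.64 and 9.87 RPKM in the wild-type libraries. That 4.74-fold gap between the knockout libraries, on 158 and 761 reads, was the widest among the 10 genes within a genotype. The log2 change of Nr4a3 was -0.60 (SE 0.63, limma adjusted p = 0.975), and it was 0.32 without OX40-knockout 1 and -1.51 without OX40-knockout 2. OX40-knockout 1 held the highest Nr4a1 value and the lowest Nr4a2 and Nr4a3 values of the 4 libraries.

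**Figure D2:**
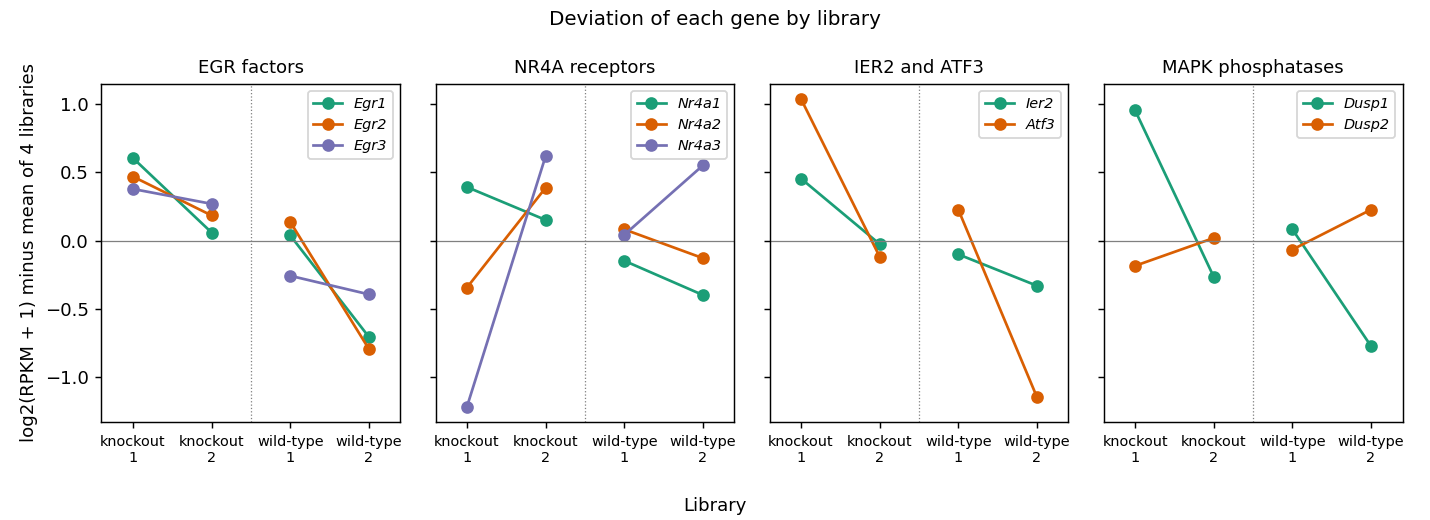
Deviation of log2(RPKM + 1) of each gene from its mean over the 4 libraries (vertical axis) in OX40-knockout 1 and 2 and wild-type 1 and 2 (horizontal axis), in 4 panels by role. The EGR genes lie above their mean in both knockout libraries, while Nr4a3 falls to -1.22 in OX40-knockout 1, where Nr4a1 is at 0.39.

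Ier2 and Atf3 belong to the general early and stress response. Ier2, a gene without introns whose product acts in the nucleus, was at 128 and 91.6 RPKM in the knockout libraries, against 86.9 and 73.9 RPKM in the wild-type libraries. The groups did not overlap, but the read intervals of OX40-knockout 2 (88.4 to 94.8 RPKM) and wild-type 1 (83.8 to 90 RPKM) did. Its log2 change was 0.43 (SE 0.20, limma adjusted p = 0.975), 0.19 without OX40-knockout 1 and 0.67 without OX40-knockout 2. Atf3, a leucine zipper factor of the CREB family that stress induces, was at 37.4 and 16.2 RPKM in the knockout libraries, against 20.9 and 7.44 RPKM in the wild-type libraries. Within each replicate number the knockout library was the higher, by 1.79-fold for number 1 and 2.18-fold for number 2. The groups overlapped, since wild-type 1 exceeded OX40-knockout 2. The log2 change of Atf3 was the largest of the 10 at 0.92, with an SE of 0.59 and a limma adjusted p of 0.975, and it ranged from 0.23 without wild-type 2 to 1.61 without wild-type 1 when a library was left out.

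Dusp1 and Dusp2 encode dual-specificity phosphatases of the nucleus that remove phosphate from MAP kinases. Dusp1 had 55.1 and 23.1 RPKM in the knockout libraries, against 29.7 and 16 RPKM in the wild-type libraries. It had the same order of libraries as Atf3, and its log2 change of 0.69 (SE 0.49, limma adjusted p = 0.975) ranged from 0.08 without OX40-knockout 1 to 1.30 without OX40-knockout 2. Dusp2, the phosphatase most typical of activated lymphocytes, was lower in the knockout library within both replicate numbers, at 74.2 and 85.7 RPKM in the knockout libraries, against 80.7 and 99.1 RPKM in the wild-type libraries. It was 0.92-fold and 0.86-fold of wild type within numbers 1 and 2, with a log2 change of -0.16 (SE 0.15, limma adjusted p = 0.975). The change was -0.06 without OX40-knockout 1, -0.02 without wild-type 2 and -0.31 without wild-type 1. Its values spanned the narrowest log2 range of the 10 genes, and the groups overlapped.

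Across the group, 5 of the 10 genes (Egr1, Egr2, Egr3, Nr4a1 and Ier2) had knockout values entirely above the wild-type values, where 8.66% of all genes tested did. None had them entirely below. Within both replicate numbers the knockout library was the higher for 7 of the 10 (the same 5 with Atf3 and Dusp1), against 16.1% of all genes tested. The median log2 change of the 10 genes was 0.60, and that of all genes tested -0.03. The 10 genes were chosen with earlier results of these data known, so these counts are descriptions and no independent test. None of the 10 passed an adjusted p of 0.05 in limma, nor did any of the 11625 genes (0%), and 2 of the 10 (Egr3 and Nr4a1) had an unadjusted p under 0.05, as did 1.39% of all genes. Without OX40-knockout 1, 9 of the 10 genes had a positive log2 change with a median of 0.37, against 8 with all libraries, since Nr4a3 turned positive. OX40-knockout 2 taken alone lay above both wild-type libraries for 7 of the 10, against 25.9% of all genes tested. The median was 0.25 without wild-type 2, the library in which 7 of the 10 genes were lowest. The share of all genes tested that were lowest in wild-type 2 was not computed. Separation of the groups is easier to meet with 3 libraries. Without wild-type 1 the knockout lay entirely above for 7 of the 10 genes, against 17.3% of all genes tested, and entirely below for 1, Dusp2, against 35.3%. Without OX40-knockout 2 it lay entirely above for the same 7, against 39.0%, and entirely below for Nr4a2, Nr4a3 and Dusp2, against 46.8%.

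**Figure D3:**
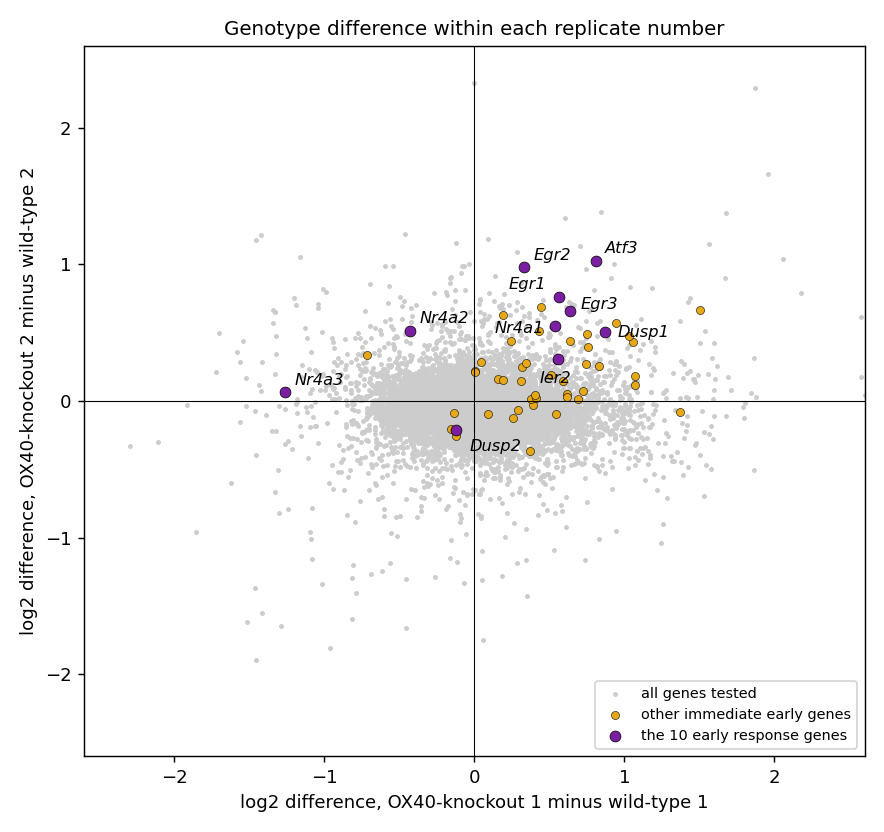
Log2 difference of OX40-knockout minus wild-type for libraries numbered 1 (horizontal axis) and numbered 2 (vertical axis) on the log2(RPKM + 1) scale, for all 11625 genes tested (grey, 8 lie beyond the axes), 44 other immediate early genes (yellow) and the 10 genes (purple). 7 of the 10 lie in the upper right field, Nr4a2 and Nr4a3 lie left of 0 and above it, and Dusp2 lies below 0 on both axes.

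The replicate number was the other axis along which these genes differed. The labels do not say what a shared number means, so the values are given without a test. 7 of the 10 genes were higher in library 1 than in library 2 within both genotypes, which held for 23.6% of all genes tested, and Dusp2 and Nr4a3 were lower within both. Atf3 was 2.3-fold higher in OX40-knockout 1 than in OX40-knockout 2 and 2.81-fold higher in wild-type 1 than in wild-type 2. Dusp1 was 2.39-fold and 1.86-fold higher in the same comparisons. Egr1 was 1.46-fold and 1.68-fold higher, and Egr2 1.24-fold and 2.06-fold. Egr3, Nr4a1 and Ier2 differed less by number, by 1.09-fold to 1.4-fold. For Atf3 and Dusp1 both libraries numbered 1 were above both numbered 2, against 18.7% of all genes tested, and their read intervals kept the numbers apart. For Nr4a3 and Dusp2 both libraries numbered 2 were above both numbered 1, against 24.0% of all genes tested. Each of these counts, 2 of 10, lay near its background share. The median absolute gap between libraries of a genotype was 0.51 for the 10 genes in the knockout pair and 0.40 in the wild-type pair, against 0.25 and 0.10 over all genes tested.

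**Figure D4:**
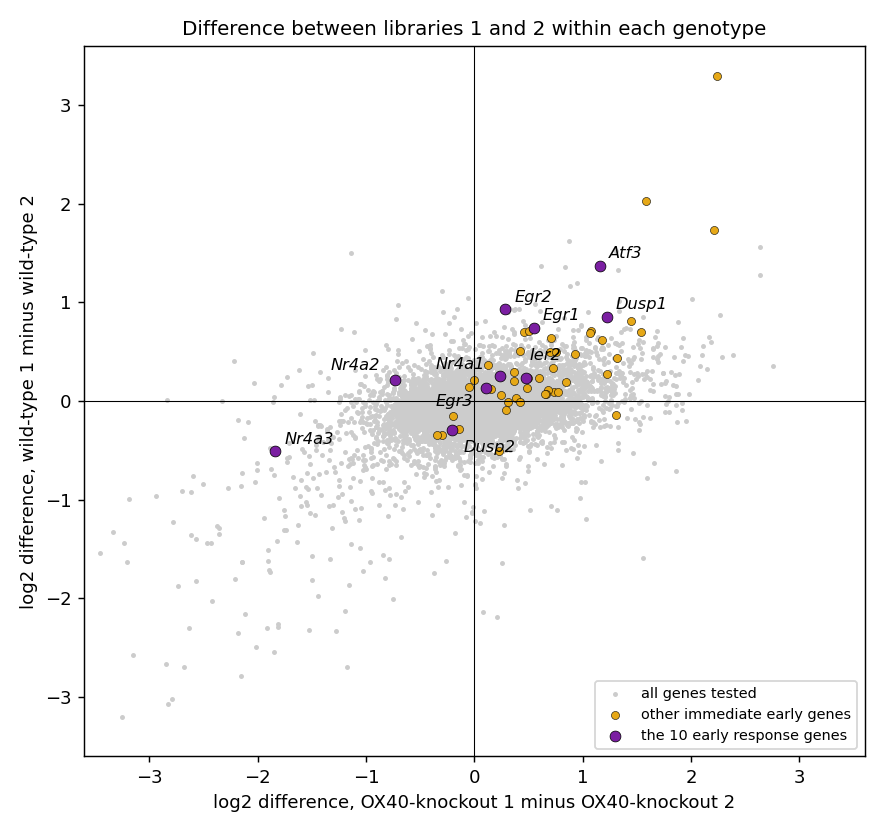
Log2 difference of library 1 minus library 2 within the OX40-knockout pair (horizontal axis) and within the wild-type pair (vertical axis) on the log2(RPKM + 1) scale, for all genes tested (grey, 9 lie beyond the axes), other immediate early genes (yellow) and the 10 genes (purple). Atf3 and Dusp1 lie far to the upper right, as do many other immediate early genes, Nr4a3 lies to the lower left, and Egr3 and Nr4a1 stay near the centre.

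OX40-knockout 1 was the highest library for 7 of the 10 genes, where it was the highest for 36.9% of all genes tested, and the lowest for the other 3 (Nr4a2, Nr4a3 and Dusp2), where it was the lowest for 42.7%. That library departed from the others with GC content. The 10 genes had transcript GC contents of 49.8% (Nr4a2) to 60.9% (Ier2), against a median of 50.5% over all genes tested. In the GC class of Ier2, the highest of 10, all tested genes together deviated by a median of 0.25 in OX40-knockout 1, and Ier2 deviated by 0.46. In the class of Atf3 the median was 0.00, and Atf3 deviated by 1.04. In the class of Nr4a3, Egr1, Egr2, Nr4a1 and Dusp2 it was 0.10, while Nr4a3 deviated by -1.22. After deviations were centred within GC classes the changes were 0.30 for Ier2, 0.58 for Egr3, 0.63 for Egr1, 0.51 for Nr4a1 and 0.93 for Atf3. They were 0.62 for Egr2, 0.68 for Dusp1, 0.09 for Nr4a2, -0.635 for Nr4a3 and -0.203 for Dusp2.

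The promoters of 7 of the 10 genes were taken by symbol from a table of RefSeq gene starts (GRCm38.p6). Those of Egr1, Egr3 and Ier2 either had no entry there or were left out, so nothing is said about their motifs. The 250 bases before each start were searched on both strands for TGACG, the core that CREB and ATF proteins bind, for the full cAMP response element TGACGTCA, which contains it, for the CArG box of serum response factor, for the EGR site GCGNGGGCG, for the NR4A site AAAGGTCA and for the AP-1 site TGANTCA. A match describes these letters and no more. The NR4A promoters are printed because each of the 3 held 4 copies of TGACG although their expression differed. 4 or more copies, a number set after these promoters had been read, were held by 45 of 32851 promoters (0.137%), and by 0.38% of those with a GC content of at least 63.6%, the lowest of the 3. Nr4a1, Nr4a2 and Dusp2 held 1 EGR site each, and 4.7% of all promoters held at least 1. Capitals mark all motif matches, and each sequence runs 5′ to 3′ on the strand of the gene.
Nr4a1, chr15:101266596-101266845, plus strand: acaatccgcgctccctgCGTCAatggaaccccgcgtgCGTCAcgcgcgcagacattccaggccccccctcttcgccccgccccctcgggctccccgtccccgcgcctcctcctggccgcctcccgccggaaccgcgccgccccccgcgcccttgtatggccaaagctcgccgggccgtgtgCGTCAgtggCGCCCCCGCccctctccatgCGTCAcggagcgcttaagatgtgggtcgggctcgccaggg
Nr4a2, chr2:57124004-57124253, minus strand: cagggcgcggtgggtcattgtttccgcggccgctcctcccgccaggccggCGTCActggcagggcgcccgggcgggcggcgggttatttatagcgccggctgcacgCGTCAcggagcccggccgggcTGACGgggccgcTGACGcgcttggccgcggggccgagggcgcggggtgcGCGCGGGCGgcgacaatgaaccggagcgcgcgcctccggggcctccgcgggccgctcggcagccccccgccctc
Nr4a3, chr4:48045055-48045304, plus strand: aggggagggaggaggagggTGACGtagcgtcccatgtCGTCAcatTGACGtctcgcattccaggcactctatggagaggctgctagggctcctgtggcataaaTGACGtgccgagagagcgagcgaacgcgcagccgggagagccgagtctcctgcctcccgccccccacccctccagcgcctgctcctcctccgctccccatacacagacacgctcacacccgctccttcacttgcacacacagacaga

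The promoters of Egr2, Atf3 and Dusp1 are printed because these genes, like Nr4a1 and unlike Nr4a2 and Nr4a3, were lowest in wild-type 2 and highest in OX40-knockout 1. Egr2 has 5 starts in the table, and the start shown, picked after its window had been read, held 1 CArG box, flanked by 2 copies of TGACG in opposite directions. A CArG box was held by 1.47% of all promoters. Dusp1 held the full TGACGTCA, as did 1.55% of all promoters, and 1 further TGACG. Atf3 held 1 TGACG close to its start, as did 17.8% of all promoters at least once. None of the 7 promoters held AAAGGTCA (1.34% of all promoters) or TGANTCA (6.75%) in this window, which says nothing about the factors that bind them.
Egr2, chr10:67537619-67537868, plus strand: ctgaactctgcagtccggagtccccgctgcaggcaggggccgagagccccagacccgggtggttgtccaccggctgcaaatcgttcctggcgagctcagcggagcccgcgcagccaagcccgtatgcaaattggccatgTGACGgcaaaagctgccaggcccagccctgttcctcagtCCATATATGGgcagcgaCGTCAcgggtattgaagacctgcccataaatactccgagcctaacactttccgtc
Atf3, chr1:191183334-191183583, minus strand: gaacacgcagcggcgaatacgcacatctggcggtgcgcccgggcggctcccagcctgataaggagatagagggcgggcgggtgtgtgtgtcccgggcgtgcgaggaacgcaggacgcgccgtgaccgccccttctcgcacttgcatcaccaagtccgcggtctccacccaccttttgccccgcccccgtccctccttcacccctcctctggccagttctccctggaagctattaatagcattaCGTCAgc
Dusp1, chr17:26508473-26508722, minus strand: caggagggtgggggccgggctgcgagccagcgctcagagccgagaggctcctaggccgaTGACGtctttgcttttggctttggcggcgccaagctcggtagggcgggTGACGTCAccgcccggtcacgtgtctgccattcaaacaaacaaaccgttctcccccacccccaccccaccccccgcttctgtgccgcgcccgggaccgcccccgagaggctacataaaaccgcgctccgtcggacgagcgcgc

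In the GENCODE vM21 annotation the 10 genes had fewer exons than the median tested gene, though by unlike margins. The longest coding transcript had between 1 exon (Ier2) and 8 exons (Nr4a1, Nr4a2 and Nr4a3), with a median of 4, against a median of 9 over 10706 tested genes with a coding transcript. All 10 were below that median, but 47.3% of these tested genes had 8 exons or fewer. The 3′ untranslated regions held the pentamer ATTTA, the core of AU-rich elements that shorten the life of a message, 0 to 7 times, with a median of 3 for the 10 genes and 1 for all. Egr3 held 7 copies, and Ier2 none. Per kilobase of that region the highest were Dusp2 with 6.85 copies, Dusp1 with 5.77 and Nr4a1 with 5.5. The lowest were Ier2 with 0, Nr4a3 with 1.615 and Egr1 with 1.641. The median was 2.51 for the 10 genes and 1.35 over all tested genes, whose upper quartile was 2.61.

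Other immediate early genes were read from a list of 46 without the 10, of which 44 were tested. In that list 39 genes had a positive and 5 a negative log2 change, with a median of 0.33. As over all genes tested, 0 passed the adjusted threshold in limma. 3 (Gadd45a, Rgs1 and Rgs2) had an unadjusted p under 0.05, against 1.39% of all genes tested. The knockout library was the higher within both replicate numbers for 33 of 44. Groups did not overlap for 8, all with the knockout higher (18.2% of the list). 28 of 44 (63.6%) had both libraries numbered 1 above both numbered 2, and 36 were highest in OX40-knockout 1. Without OX40-knockout 1 the median log2 change was -0.015, with 18 genes higher and 26 lower, and OX40-knockout 2 lay above both wild-type libraries for 9 of 44 (20.5%). Fos and Fosb, AP-1 subunits of the earliest response, were far higher in libraries numbered 1 than in those numbered 2. Fos was at 78.5 and 25.5 RPKM in the knockout libraries, against 68.6 and 16.1 RPKM in wild-type libraries, and Fosb was at 21.1 and 3.67 RPKM, against 35.2 and 2.7 RPKM. The largest change in the list was that of Gadd45b, a stress gene that NF-kB induces, at 34.6 and 11.2 RPKM in the knockout libraries, against 11.5 and 6.7 RPKM in the wild-type libraries (log2 change 1.09, SE 0.56, limma adjusted p = 0.975). Zfp36, whose product binds AU-rich messages and speeds their decay, came next at 155.5 and 73.5 RPKM in the knockout libraries, against 80.2 and 49.2 RPKM in the wild-type libraries. The lowest changes were -0.19 for Fosb and -0.19 for Id3.

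None of the genes around the pathway passed the adjusted threshold, and neither did any of the 11625 genes tested (0%). The lack of calls in the lists below therefore does not show that these genes were unchanged. Of 16 tested MAP kinase phosphatases and ERK feedback genes other than Dusp1 and Dusp2, 10 were higher and 6 lower with a median log2 change of 0.02, and 0 passed in limma. Dusp4 (18.5 and 8.83 RPKM in the knockout libraries, 9.35 and 8.08 RPKM in wild-type libraries) and Dusp10 (15 and 10.8 RPKM, against 8.09 and 9.58 RPKM) had the largest changes in that list. Errfi1, an inhibitor of EGF receptors, had the lowest, at 40 and 110.6 RPKM in the knockout libraries, against 75.3 and 100.2 RPKM in wild-type libraries, and Spry4, an inhibitor of RAS signalling, was next. The 23 tested genes of RAS, ERK, p38 and SRF signalling, the kinases and factors that switch the early genes on, had a median of -0.03, with 10 higher, 13 lower and none past the threshold. Map2k2 and Map2k6, kinases that activate ERK and p38, had the largest changes there (0.26 and 0.20). Elk4, a partner of serum response factor, and Creb1, which binds cAMP response elements, had the lowest (-0.25 and -0.21). Of the EGR corepressors, Nab1 was at 42.8 and 55.9 RPKM in the knockout libraries, against 50.1 and 51.2 RPKM in wild-type libraries, and Nab2 at 15.6 and 18.6 RPKM, against 15.7 and 17.3 RPKM. Rxrb, a nuclear receptor partner, had a log2 change of 0.27. In this list of 4 tested partners 3 were higher and 1 lower, none past the threshold.

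22 genes reported as EGR or NR4A targets in T cells were tested, with 10 higher, 12 lower and a median of -0.01. In limma 0 passed the adjusted threshold, as over all genes tested (0%). 1 (Ikzf2) had an unadjusted p under 0.05, against 1.39% of all genes tested. Socs3, an inhibitor of cytokine receptors, and Nrgn had the largest changes (0.81 and 0.55), and Fasl and Cblb the lowest (-0.62 and -0.38). Socs3 stood at 96.6 and 34 RPKM in the knockout libraries, against 35.6 and 29.3 RPKM in the wild-type libraries, with OX40-knockout 1 far above the other 3 libraries. Fasl, the death ligand, was at 10.6 and 24.8 RPKM in the knockout libraries, against 20.3 and 32.2 RPKM in the wild-type libraries. Cblb, a ubiquitin ligase that limits T cell activation, was at 21.7 and 39 RPKM, against 36 and 40.7 RPKM. Of 14 listed heat shock genes, some of which cell stress induces, 11 were tested. 4 were higher and 7 lower, with a median of -0.08 and none past the threshold. Some were high in every library, such as Hsp90ab1 at 3549 and 3677 RPKM in the knockout and 3650 and 3487 RPKM in the wild-type libraries. Whether the cells were stressed was not tested. Hmox1 and Dnajb1 had the largest changes there (0.22 and 0.17) and Dnajb4 and Hsp90aa1 the lowest (-0.34 and -0.29).

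Genes with the most similar profile were sought by the Euclidean distance between profiles of log2(RPKM + 1) centred on the mean over the 4 libraries, among 8580 named genes whose mean reached 5 RPKM. With 4 libraries many genes can come close, so these are descriptions. Nearest to the mean EGR profile were Ctla4 (distance 0.23), Rgs2, Rhob, Ppp1r15a and Clk1. Ctla4, an inhibitory receptor of T cells, stood at 163 and 144 RPKM in the knockout libraries, against 119.5 and 92.3 RPKM in the wild-type libraries. Nearest to the mean NR4A profile, which averages genes that differ, were Sypl (0.08), Fgr, Ell2, Ndufaf2 and Arhgef5. Nearest to the mean profile of Ier2 and Atf3, which deviated by unlike amounts, were Sgk1 (0.04), Zfp36, Tnfaip3, Ppp1r15a and Psd. Of these, Zfp36, Tnfaip3 and Ppp1r15a stand in the list of other immediate early genes. Sgk1, a kinase, was at 53 and 29.4 RPKM in the knockout libraries, against 33.6 and 18.3 RPKM in the wild-type libraries. Nearest to the mean of Dusp1 and Dusp2, whose changes had opposite signs, were Insig1 (0.06), Yif1b, Treml2, Zmiz1 and Dpm1.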

How the data were processed

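RNA was measured by sequencing in 4 libraries, 2 from OX40-knockout and 2 from wild-type double-negative regulatory T cells. Bowtie 0.12.2 and the build mm8 are named per the submitters' processing notes. The sources used here do not name the annotation or counting tool, nor whether strand was used. The deposited values carry no unit. They were taken as RPKM that the authors computed, because for 83.8% of 5603 genes with 1 transcript they gave whole reads (within 0.02) when multiplied by transcript length and library total. Ensembl IDs were matched to symbols with GENCODE vM21 (34490 of 35275 genes).

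Levels were tested as log2(RPKM + 1), a scale that shrinks the fold changes of weakly expressed genes, with limma 3.58.1 in R 4.3.3 (2 groups, mean-variance trend, Benjamini-Hochberg adjustment over 11625 genes whose mean reached 1 RPKM, threshold 0.05). An exact permutation test of 2 libraries against 2 cannot go below a 2-sided p of 0.333 and was not used. Reads per gene were recovered as the whole numbers in all 4 libraries that implied a length nearest the annotated one, which for Egr3, Nr4a1, Atf3 and Dusp1 differed from it, and their exact 95% Poisson intervals cover counting error only. Tables and figures were made with matplotlib 3.10.9, pandas 2.3.3 and numpy 2.4.6 in Python 3.11.15. The test was also run on simulated counts with equal spread in both groups and no difference by replicate number. The libraries here differ in both respects, so that run says little about the p-values given. The 10 genes are all named. From each other list the 2 highest and the 2 lowest log2 changes among genes whose mean reached 5 RPKM are named, with Fos, Fosb and genes the text singles out, which were chosen after their values were seen. The members and lists were chosen with earlier results of these data known. Alternatives were other pseudocounts, filters and scalings, a GC correction, the replicate number as a block, each library left out, and limma-voom on approximate reads. The last, the GC correction without the block and the counts of genes higher without OX40-knockout 1 were chosen after seeing the data.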

Additional observations from a re-analysis of the deposited data

How the results depend on the processing

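With 2 libraries per genotype, 0 of 11625 genes passed the adjusted threshold in limma (162 at an unadjusted p under 0.05), and limma-voom on approximate reads, chosen after seeing the data, also called 0 (133 at an unadjusted p). With the replicate number as a replicate block 5 genes passed, none of the 10, whose lowest adjusted p was then 0.233 (Atf3). At an unadjusted p under 0.05 the block gave 7 of the 10 (Atf3, Dusp1, Egr1, Egr2, Egr3, Ier2 and Nr4a1) and 373 of all genes (3.21%), and 7 again with the GC correction (3.83% of all genes). The labels do not say that numbers pair libraries, and with 2 pairs the deviations of same-numbered libraries correlated at 0.47. The GC correction without the block, also chosen after seeing the data, called 0. Quantile normalization called 1 gene, the GC correction with the replicate block called 1, and leaving out a library called 0 to 1. TMM-type scaling split the genes at an unadjusted p into 85 higher and 80 lower, against 64 and 98 in the main scaling. Of the 10 genes, 5 showed no overlap in the main setting, all with the knockout higher, against 8.66% of all genes tested. With a mean of at least 5 RPKM it was 3, since Egr3 and Nr4a1 fall below the filter. The share over the 8902 genes of that setting was not computed. With a library left out it was 5 to 10, in both directions together. The 10 came without OX40-knockout 2, where the knockout lay entirely above for 39.0% of all genes tested and entirely below for 46.8%. Without wild-type 1 it was 8, against 17.3% above and 35.3% below. For the other omissions no such share was computed. The median log2 change of the 10 genes ranged from 0.25 to 0.69 with a library left out. That of the other immediate early genes ranged from -0.015 to 0.64. Nr4a2 ranged from -0.32 to 0.41, with -0.06 without wild-type 2, and Nr4a3 from -1.51 to 0.32, and these 2 reversed. The causes were not tested. The other 135 of 138 pairs of gene and alternative kept their direction and side of the threshold. Since each number has both genotypes, the replicate block cannot alter a log2 change. The GC correction likewise gave the same changes with and without the block. These pairs are therefore not independent checks of direction. Without OX40-knockout 2 the spread comes from the wild-type pair alone, the lone knockout library is assumed to vary like it, and 3832 genes (33.0%) had an unadjusted p under 0.05, so adjusted p-values there, down to 0.0661 for Nr4a3, are not comparable with the others. The lowest read count behind a value was 158, for Nr4a3.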
